A study of Arabidopsis thaliana with 4 samples.

Results

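Expansins and xyloglucan endotransglucosylase/hydrolases (XTHs) of Arabidopsis thaliana leaves were measured on Affymetrix ATH1 arrays. The members are the 27 probe sets, of 22746 on the array beside its controls, that name exactly 1 gene with a symbol beginning in EXPA, EXPB, EXLA, EXLB or XTH. No signal was required of them. Each stands for a different gene, 27 of the 64 genes with such symbols in the RefSeq annotation of TAIR10.1, and the genes of these families without a probe set named here were not analysed. There are 10 alpha-expansins (EXPA), 4 beta-expansins (EXPB), 3 expansin-like A genes (EXLA), 1 expansin-like B gene (EXLB) and 9 XTH genes. A further 2 probe sets that each name several alpha-expansin genes were left out.

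Rosette leaves of wild-type Col-0 plants were compared with those of KO-nudx19 plants, which are without NUDX19, an NADPH-cleaving enzyme of the Nudix hydrolase family. Seedlings of both genotypes spent 1 week on sucrose medium (3%) before moving to soil for 2 weeks. The chamber gave 16 h of light (100 µmol m−2 s−1, 25 °C) and 8 h of darkness (22 °C), and the plants were harvested at 3 weeks of age. There were 4 arrays, 2 for each genotype, numbered replicate 1 and 2. The labels give neither the mutant allele nor what the number stands for, and do not say that the replicates were grown separately, so the p-values reflect only how far these arrays spread, possibly for technical reasons.

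Expansins are small secreted proteins that loosen the growing cell wall at acid pH without cutting its polymers, probably where cellulose microfibrils touch other polysaccharides. Alpha- and beta-expansins are the families with shown wall-loosening activity, whereas the expansin-like proteins share their domains without an established activity. XTHs cut xyloglucan, the main hemicellulose of these walls, and join the cut end to another xyloglucan chain or, for some members, to water. In leaves both families are known for their part in cell expansion, which largely ends as a leaf matures.

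The values are the authors' deposited signals, on a linear scale with a trimmed mean of 200 on every array. The probe sets of RCA, PSAE-1 and LHCB4.2, markers of leaf mesophyll, had signals between 8128 and 19541. PYK10, a root-enriched beta-glucosidase, read 607 and 794 on the wild-type arrays, 544 and 471 on those of KO-nudx19 (replicate 1 before replicate 2, as throughout). AUR1 and AUR2, mitotic kinases of dividing cells, had signals between 104 and 176 in wild type and between 76.4 and 165 in KO-nudx19. No marker of flower, xylem or guard cell had a probe set named here. The 2 sets of added controls differed between the arrays. The geometric mean of the poly(A) controls was 116 and 98.2 for replicate 1 of wild type and KO-nudx19, and 19.9 and 21.0 for replicate 2, so they parted by replicate number. For hybridisation controls it read 620 and 411 on the wild-type arrays, 1054 and 1140 on those of KO-nudx19, so they parted by genotype. The part of these differences in the results below was not tested.

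Of the 27 members, 14 had a mean signal of at least 38.2, the 40th percentile of all probe sets, and were tested. They were 5 of 10 alpha-expansins, 2 of 4 beta-expansins, 2 of 3 EXLA genes, EXLB1 and 4 of 9 XTH genes. XTH18, with a mean signal of 39.5, lay just inside this limit, and XTH33, with 35.1, just outside. Signals of different probe sets depend on their probes as well as on the transcript, so the levels below are compared between arrays and not between genes. In whole leaves, fewer cells of a type and less RNA per cell cannot be told apart.

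Among the alpha-expansins, the arrays of EXPA16 (AT3G55500) were the least alike of all tested members. It read 18.5 and 66.6 on the wild-type arrays, 9.30 and 183 on those of KO-nudx19, a 19.7-fold span from the lowest to the highest array. Both arrays numbered 1 were low and both numbered 2 were high, while the genotypes overlapped. EXPA9 (AT5G02260) went the other way, with 168 and 62.7 for the wild-type arrays, 145 and 77.5 for those of KO-nudx19. EXPA8 (AT2G40610) read 1375 and 1035 on the wild-type arrays, 1115 and 415 on those of KO-nudx19. The last of these arrays lay far below the other 3, which stood within a range of 1035 to 1375. EXPA15 (AT2G03090) read 154 and 172 on the wild-type arrays, 111 and 194 on those of KO-nudx19, so that the KO-nudx19 arrays enclosed both wild-type ones. EXPA4 (AT2G39700) read 382 and 382 on the wild-type arrays, 237 and 345 on those of KO-nudx19. Its wild-type arrays were nearly equal and both KO-nudx19 arrays were lower.

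The beta-expansins form the branch of the family that also holds the group-1 allergens of grass pollen. EXPB3 (AT4G28250) read 379 and 358 on the wild-type arrays, 187 and 317 on those of KO-nudx19. EXPB1 (AT2G20750) read 127 and 114 on the wild-type arrays, 87.8 and 74.9 on those of KO-nudx19. For both genes the 2 KO-nudx19 arrays were below the 2 wild-type arrays.

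Of the expansin-like genes, EXLA1 (AT3G45970) read 218 and 319 on the wild-type arrays, 353 and 480 on those of KO-nudx19, with both KO-nudx19 arrays above the wild-type ones. EXLA2 (AT4G38400) read 119 and 73.7 on the wild-type arrays, 104 and 158 on those of KO-nudx19, and its genotypes overlapped. EXLB1 (AT4G17030) read 112 and 134 on the wild-type arrays, 170 and 62.5 on those of KO-nudx19, which put the KO-nudx19 arrays at the top and the bottom of its range. EXLA3 lies next to EXLA1 in the genome annotation, and its mean signal of 11.4 was below the limit for testing.

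XTH32 (AT2G36870) belongs to the branch of the family, group III-A, that includes xyloglucan hydrolases. It read 578 and 810 on the wild-type arrays, 388 and 931 on those of KO-nudx19, with both arrays numbered 2 above both numbered 1. XTH16 (AT3G23730) was the steadiest tested member, with 345 and 376 for the wild-type arrays, 355 and 425 for those of KO-nudx19, a span of 1.23-fold. XTH18 (AT4G30280) and XTH19 (AT4G30290) are neighbouring genes known from roots. XTH18 read 33.6 and 42.9 on the wild-type arrays, 46.3 and 35.1 on those of KO-nudx19, and XTH19 had 35.9 and 38.8 against 72.3 and 33.8. Both were highest on KO-nudx19 replicate 1, and XTH19 stood apart there from 3 arrays within a range of 33.8 to 38.8. Close relatives such as these 2 can share hybridising sequence, so their values are uncertain.

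**Figure D1:**
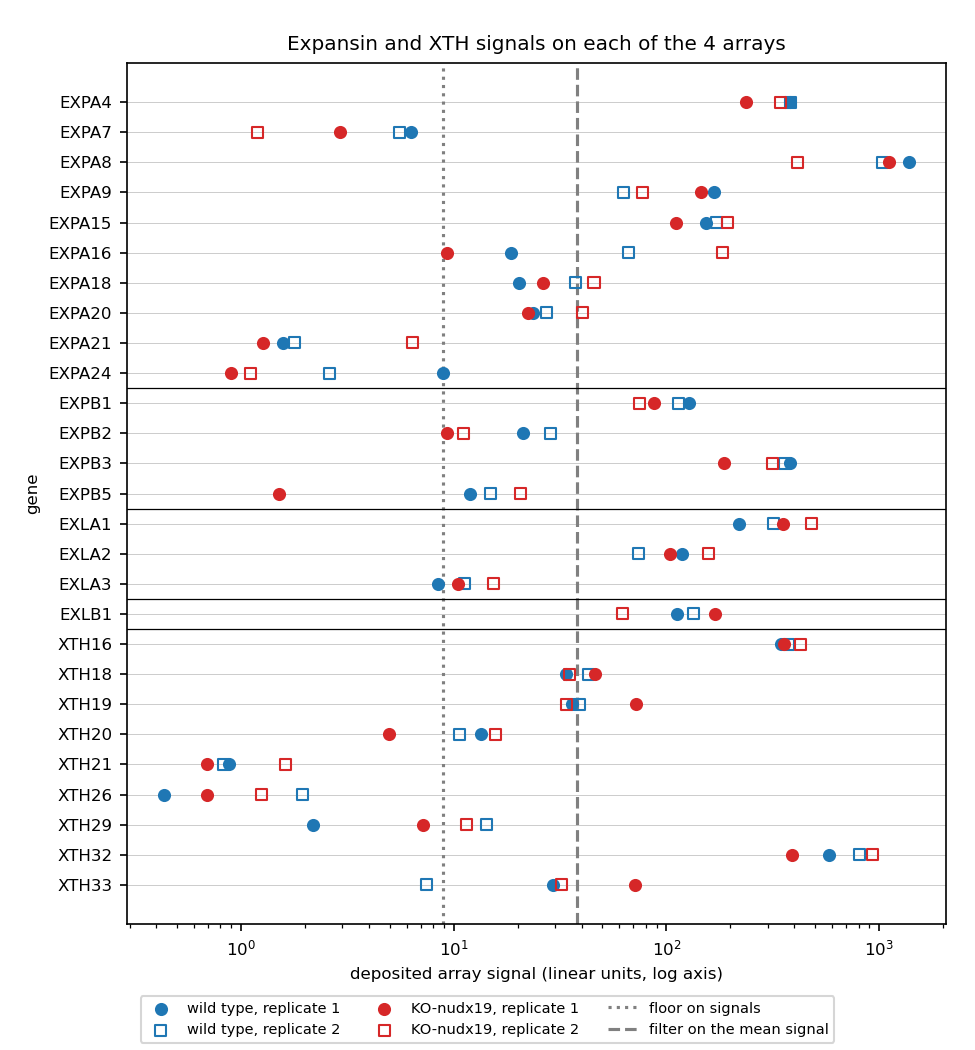
Deposited array signal (linear units on a log axis) of all 27 members by family, with 1 point per array, wild type in blue and KO-nudx19 in red, replicate 1 as filled circles and replicate 2 as open squares. The dotted line is the floor of 8.92 and the dashed line the mean signal of 38.2 needed for testing; EXPA16 spans 9.30 to 183, parted by replicate number.

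The other 13 members had mean signals between 1.00 and 35.1, and 5 of them lay below 8.92, the 20th percentile of all signals, on every array. Such signals have no order, so no difference is given for these 5. The dimmest were XTH21, with a mean of 1.00, XTH26, with 1.08, and EXPA21, with 2.76. XTH21 and XTH26 are known from roots, as are EXPA7 and EXPA18, alpha-expansins of root hairs. EXPA7 was below 8.92 on every array. EXPA18 read 20.3 and 37.5 on the wild-type arrays, 26.2 and 45.7 on those of KO-nudx19, higher on both arrays numbered 2. EXPA20 also was higher there, with 23.7 and 27.4 for the wild-type arrays, 22.4 and 40.4 for those of KO-nudx19. Of all tested probe sets, which are brighter, 23.6% were higher on both arrays numbered 2. XTH33, an XTH known to be held at the plasma membrane, read 29.4 and 7.42 on the wild-type arrays, 71.3 and 32.3 on those of KO-nudx19, with both KO-nudx19 arrays above the wild-type ones. EXPB2, singled out after its values were seen, read 21.2 and 28.5 on the wild-type arrays, 9.26 and 11.1 on those of KO-nudx19. Both KO-nudx19 arrays were lower and close to the floor. Among all tested probe sets 10.5% were higher on both KO-nudx19 arrays and 11.8% were lower. When dim probe sets were kept in the test, EXPB2 had a log2 difference of −1.28 (SE 0.22) between the genotypes, which did not pass (limma adjusted p = 1.00). In that fit 0 of all 22746 probe sets passed. An unadjusted p under 0.05 in limma was found for 562 of them, EXPB2 (0.012) being the only member.

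The genotypes were compared to find leaf transcripts that change with the loss of NUDX19. No expansin or XTH passed. The signals of EXPA4, EXPB1 and EXPB3 were lower on both KO-nudx19 arrays than on either wild-type array, and that of EXLA1 was higher. These 4 are 28.6% of the 14 tested members, while 22.3% of all tested probe sets had arrays that did not overlap. Lower in KO-nudx19 were 3 of the 14, against 11.8% of all tested probe sets, and higher was 1, against 10.5%. Tested with limma over 13648 probe sets, 0 of the 14 members passed a Benjamini-Hochberg adjusted p of 0.05, and 0 had an unadjusted p under 0.05. Over all tested probe sets the percentage passing was 0, and 89 had an unadjusted p under 0.05. This fit leaves the difference between replicate numbers in its error. With the number as a block in limma, 4 of the 14 members and 5.41% of all tested probe sets had an unadjusted p under 0.05, and again 0 members passed.

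EXLA1 averaged 268 ± 70.8 over the wild-type arrays and 416 ± 90.4 over those of KO-nudx19 (SD, n = 2 for each genotype), with a log2 difference of 0.64 (SE 0.31, 95% confidence interval −0.11 to 1.40). Its difference was much the same in each replicate number, at 0.69 for replicate 1 and 0.59 for replicate 2. It was 0.37 without wild type replicate 1 and 0.42 without KO-nudx19 replicate 2, but 0.91 without wild type replicate 2 and 0.86 without KO-nudx19 replicate 1. EXPB1 averaged 121 ± 9.36 and 81.4 ± 9.11, a log2 difference of −0.57 (SE 0.28, interval −1.26 to 0.11). It too differed alike in both numbers, by −0.54 and −0.61. EXPB3 averaged 368 ± 15.2 and 252 ± 91.8, a log2 difference of −0.60 (SE 0.32, interval −1.39 to 0.19). That difference came mostly from KO-nudx19 replicate 1, being −1.02 for replicate 1 and −0.18 for replicate 2, and leaving that array out gave −0.22, whereas leaving out KO-nudx19 replicate 2 gave −0.98. EXPA4 averaged 382 ± 0.474 and 291 ± 76.0, a log2 difference of −0.42 (SE 0.28, interval −1.10 to 0.27). It also was wider for replicate 1, at −0.68, than for replicate 2, at −0.15, and it was −0.15 without KO-nudx19 replicate 1 and −0.69 without replicate 2. The log2 differences of these 4 genes had an adjusted p of 1.00 in limma. In this fit, which has no term for the replicate number, every one of the 4 intervals includes 0 and also a difference of 2-fold. The mesophyll markers RCA, PSAE-1 and LHCB4.2 were higher on both KO-nudx19 arrays, at log2 differences of 0.47, 0.59 and 0.40. The mitotic kinases AUR1 and AUR2 and the root-enriched PYK10 were lower on both, at −0.26, −0.38 and −0.46. These markers thus parted by genotype in the same libraries as the 4 genes, but none passed in limma and every interval includes 0. Of all tested probe sets, 10.5% were higher on both KO-nudx19 arrays and 11.8% were lower. The part of these markers in the differences of the 4 genes was not tested.

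The remaining 10 members overlapped between the genotypes. EXPA8 was lower in KO-nudx19 in both replicate numbers, by −0.30 and −1.32 on the log2 scale, but its lowest wild-type array, 1035, was below its highest KO-nudx19 array, 1115. XTH16 was higher in both, by 0.04 and 0.18. The other 8 had differences of opposite sign in the 2 numbers. EXPA16 was −0.997 for replicate 1 and 1.46 for replicate 2, EXLB1 was 0.60 and −1.10, and XTH19 was 1.01 and −0.20. So 6 of 14 members had the same sign in both numbers, 42.9%, against 49.1% of all tested probe sets. The median log2 difference of the members was −0.26 for the arrays numbered 1, with 9 of 14 below 0, and 0.013 for those numbered 2, with 7 of 14 below 0. Over all tested probe sets these medians were −0.011 and 0.0066.

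**Figure D2:**
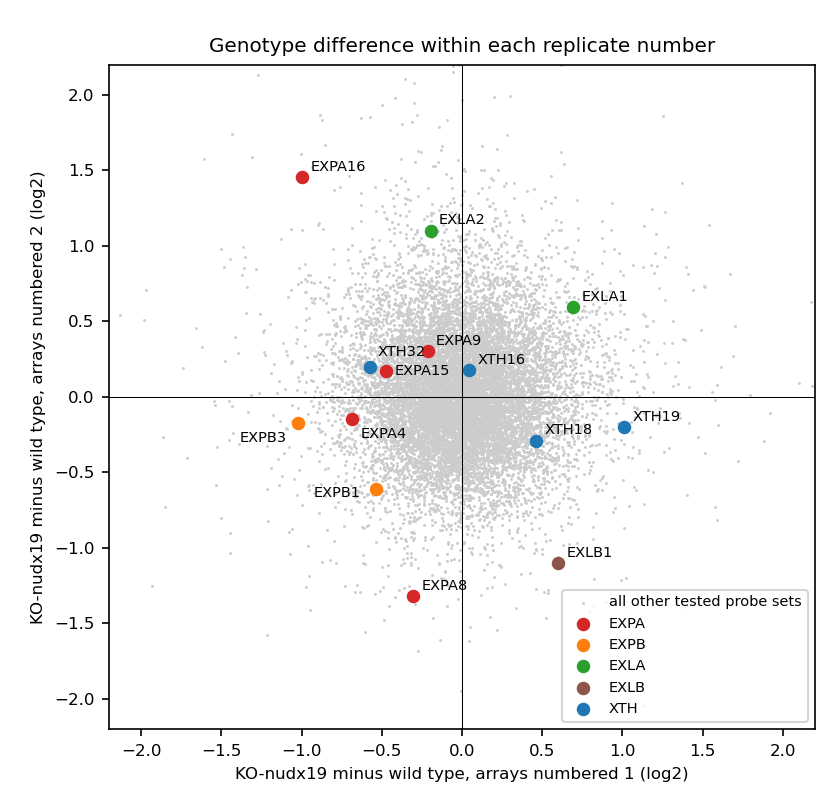
Log2 difference of KO-nudx19 from wild type, with replicate 1 on the horizontal and replicate 2 on the vertical axis, with the 14 tested members coloured by family and the other tested probe sets in grey, 65 of 13634 of which lie outside the axes. EXLA1 sits at 0.69 and 0.59 and EXPB1 at −0.54 and −0.61, while 8 members lie in the quadrants of opposite sign.

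Differences of at least 2-fold between the genotypes were found for 2 of 14 members with the arrays numbered 1, EXPB3 and XTH19, and for 4 with those numbered 2, EXPA8, EXPA16, EXLA2 and EXLB1. Of all tested probe sets, 1.87% and 2.99% differed by that much. No member did so in both numbers. XTH19 and EXPA16 met the mean signal needed for testing only through their high arrays, so their places in these counts are a description. The ratio of the highest to the lowest array had a median of 2.14 over the 14 members and of 1.53 over all tested probe sets.

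The arrays numbered 2 were then compared with those numbered 1, with the genotype as a term in limma. Each number holds 1 array of each genotype. Of the 14 members, 4 passed an adjusted p of 0.05, which is 28.6%, while 11.2% of all tested probe sets did. That count includes EXPA16, which met the mean signal of 38.2 only through the arrays numbered 2. XTH19, which did not pass, met it only through KO-nudx19 replicate 1, at 72.3. Its mean was 54.1 on the arrays numbered 1 against 36.3 on those numbered 2. With the limit at the 60th percentile EXPA16 was not tested, and 3 of 10 members passed. EXPA16 and XTH32 were higher on the arrays numbered 2, as were 4.93% of all tested probe sets, and EXPA8 and EXPA9 were lower, as were 6.32%. A further member had an unadjusted p under 0.05, EXLA1 (log2 difference 0.50, SE 0.23, limma adjusted p = 0.195). It was 0.15 without wild type replicate 1, 0.20 without KO-nudx19 replicate 2, 0.79 without wild type replicate 2 and 0.84 without KO-nudx19 replicate 1. Of the alpha-expansins, EXPA8 and EXPA9 thus passed, both lower on the arrays numbered 2. EXPA16 is not counted with them, because those arrays brought it into the test. None of the beta-expansin, EXLA or EXLB genes tested passed.

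EXPA16 had a mean signal of 13.9 on the arrays numbered 1 and 125 on those numbered 2. Since it was tested only because the latter were high, its difference is given as a description. The difference was the widest of the members, 3.07 on the log2 scale (SE 0.47). Its limma adjusted p of 1.8e-04 cannot count as support, because the arrays numbered 2 brought the gene into the test. The signal was 3.59-fold higher on the array numbered 2 in wild type and 19.7-fold higher in KO-nudx19. Whether these 2 folds differ was not tested, because the 4 arrays leave no spread for it. Its KO-nudx19 replicate 1 signal of 9.30 was only just above the floor of 8.92, and a floor at the 40th percentile gave a log2 difference of 1.57. Without the filter on dim probe sets it did not pass (adjusted p = 0.464 in limma). Leaving out each array in turn gave values from 2.34 to 3.80. The probe sets were still those chosen with all 4 arrays, so these fits cannot support the difference.

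EXPA9 had a mean signal of 157 ± 16.4 on the arrays numbered 1 and 70.1 ± 10.5 on those numbered 2 (SD, n = 2 for each number), a log2 difference of −1.16 (SE 0.26, limma adjusted p = 0.0058). It was −1.42 within wild type and −0.90 within KO-nudx19. Without wild type replicate 1 the difference was −1.06 and without KO-nudx19 replicate 1 it was −1.27, and neither passed (adjusted p = 0.121 and 0.0574 in limma). These fits on 3 arrays have no genotype term, and without that term EXPA8 did not pass on all 4 arrays either (adjusted p = 0.143). XTH32 had 483 ± 135 and 870 ± 85.5, a log2 difference of 0.87 (SE 0.24, limma adjusted p = 0.0211), within wild type 0.49 and within KO-nudx19 1.26. The call was lost without either KO-nudx19 array, at 0.59 without replicate 1 (adjusted p = 0.268) and 0.77 without replicate 2 (adjusted p = 0.0991, both in limma). EXPA8 had 1245 ± 184 and 725 ± 438, a log2 difference of −0.92 (SE 0.24, limma adjusted p = 0.0177), within wild type −0.41 and within KO-nudx19 −1.42. That call rested on KO-nudx19 replicate 2, without which the difference was −0.26 (adjusted p = 0.608). It was also lost without wild type replicate 1, at −0.77, or KO-nudx19 replicate 1, at −1.07, whereas without wild type replicate 2 it was −1.58 and passed. EXLB1 passed only without wild type replicate 2, at −1.14 (adjusted p = 0.0362 in limma), against −0.60 with all arrays.

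**Figure D3:**
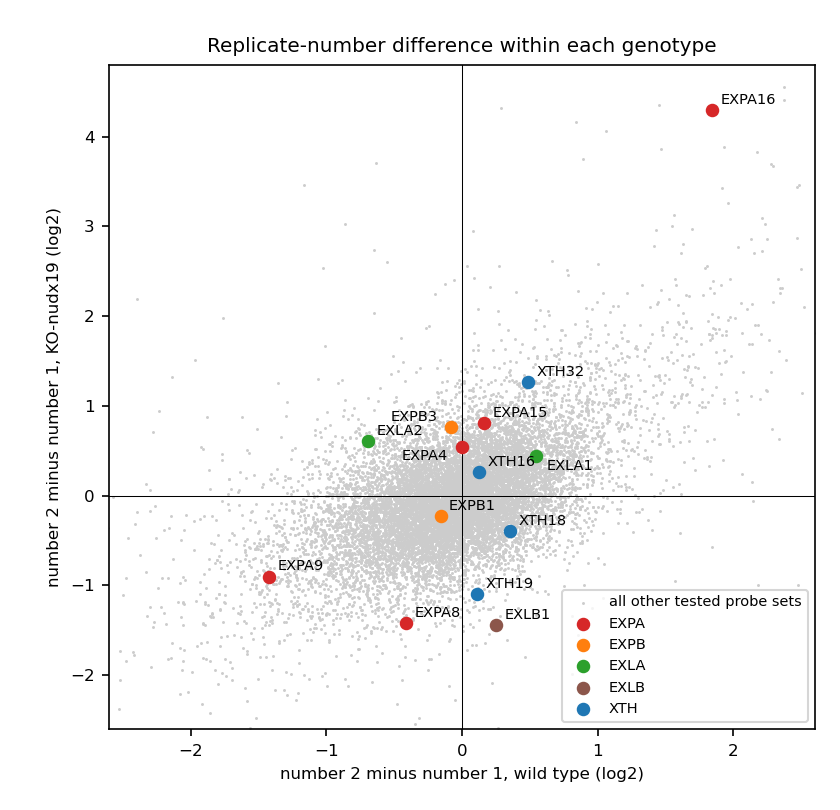
Log2 difference between the arrays numbered 2 and 1 in wild type (horizontal) and in KO-nudx19 (vertical), with the 14 tested members coloured by family and the other tested probe sets in grey, 86 of 13634 of which lie outside the axes. EXPA16 is at 1.85 and 4.30 and EXPA9 at −1.42 and −0.90, the only tested members at least 2-fold apart in wild type.

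The arrays of 6 members did not overlap between the replicate numbers, 42.9% of those tested, while 54.4% of all tested probe sets did not. Of these members 4 were higher on the arrays numbered 2, against 23.6% of all tested probe sets, and 2 were lower, against 30.8%. Beside the 4 that passed these were EXPA15 and XTH16, both higher on the arrays numbered 2. EXPA15 had a log2 difference of 0.48 (SE 0.25) and XTH16 of 0.19 (SE 0.23), and neither passed. EXPA15 was 0.25 without KO-nudx19 replicate 1, and XTH16 was 0.10 without KO-nudx19 replicate 2. The sign of the difference was the same in both genotypes for 9 of 14 members, 64.3%, against 66.5% of all tested probe sets. The exceptions were EXPB3, EXLA2, EXLB1, XTH18 and XTH19. EXLA2 was −0.69 within wild type and 0.61 within KO-nudx19, and EXLB1 was 0.25 and −1.44. Differences of at least 2-fold between the numbers were found for 2 of 14 members in wild type, EXPA9 and EXPA16, and for 5 in KO-nudx19, where they were EXPA8, EXPA16, EXLB1, XTH19 and XTH32. Of all tested probe sets 9.58% and 9.64% differed that much. EXPA16 and XTH19 met the mean signal needed for testing only through their high arrays, so their places in these counts are a description. The members' median log2 difference in the fit was 0.085, and that of all tested probe sets was −0.052. The mesophyll markers were higher on the arrays numbered 2 within each genotype, though their arrays overlapped between the numbers. PSAE-1 rose by 0.54 on the log2 scale (limma adjusted p = 0.0283), while RCA, at 0.35, and LHCB4.2, at 0.37, were higher on the arrays numbered 2 in both genotypes without passing (adjusted p = 0.159 and 0.137 in limma). PYK10, AUR1 and AUR2 had differences of 0.090, 0.16 and −0.18, and none passed. The poly(A) controls were lower on the arrays numbered 2. Of the 3 transcripts with probe sets at both ends, the 3′/5′ ratio of actin was higher there, at 4.27 against 2.30 within wild type and 5.17 against 2.92 within KO-nudx19. That of GAPDH was 1.15 against 1.01 and 1.38 against 0.986, and that of ubiquitin was lower within wild type, 1.44 against 1.53, and higher within KO-nudx19, 1.95 against 1.48. The part of cell makeup, labelling or RNA integrity in these differences was not tested.

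**Figure D4:**
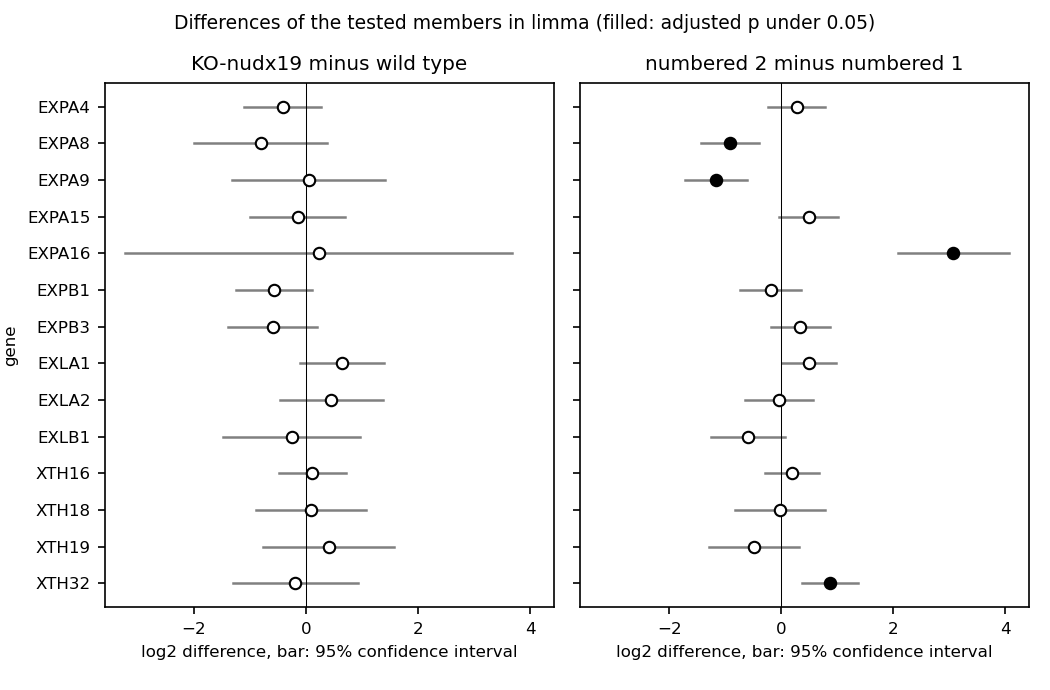
Log2 difference of each of the 14 tested members in limma, with its 95% confidence interval, between the genotypes (left) and between the replicate numbers (right); filled points have an adjusted p under 0.05. No point is filled on the left, and EXPA8, EXPA9, EXPA16 and XTH32 are filled on the right.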

How the data were processed

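The authors' deposited intensity signals were used, 1 per probe set and array. They come from GCOS, Affymetrix software of a version that is not stated, per the submitters' processing notes. How background was corrected and probes were summarised is not stated in those notes. Sample titles gave the groups, and column identifiers gave the samples. A floor was set at the 20th percentile of the signals (8.92) before log2 was taken, and 64 control probe sets were dropped. Probe sets with a mean signal below the 40th percentile (38.2) were left out of the test, which left 13648.

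Both comparisons were fitted with limma (version 3.58.1, R 4.3.3; eBayes with a trend) over all these probe sets, with Benjamini-Hochberg adjustment. For 2 against 2 arrays the smallest two-sided p of an exact test is 0.333, so single genes had no such test. Differences are on the floored log2 scale, which understates those of dim transcripts. Every tested member is named with its signals, and of the others the 3 brightest and 3 dimmest. EXLA3, EXPA7 and EXPB2 are named in addition, EXPB2 after its values were seen.

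Probe sets were named through a platform annotation table, and all 27 members matched RefSeq (TAIR10.1) by gene identifier. NUDX19 had no named probe set and was not analysed here, so the genotype labels could not be checked against it. No coordinates are given, because no genome build is named. Members, gene lists and tests were chosen with earlier results of these data known. Of 20 marker loci 6, and of 29 related loci of wall synthesis, proton pumps, touch response and growth hormones 2, had a named probe set. The code was tested on simulated data. Figures were drawn with matplotlib 3.10.9.

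As alternatives, the scaling (quantile normalization, median centring), the floor (40th percentile, or a pseudocount in its place), the filter (none, or 60th percentile) and the trend of eBayes (none) were changed 1 at a time. The genotype fit was also run with the replicate number as a block, the fit of the numbers without the genotype term, and both without each array.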

Additional observations from a re-analysis of the deposited data

How the results depend on the processing

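Precision is limited by having 2 arrays per genotype, and the labels do not pair same-numbered arrays. Their deviations from the genotype means had a correlation of 0.553 over tested probe sets. For the genotypes, 0 members passed in limma under every alternative run, including the replicate block, under which 4 members had an unadjusted p under 0.05 (EXPA8, EXLA1, EXPB3 and EXPB1, lowest adjusted p = 0.43) against 5.41% of all tested probe sets. With the block the 95% confidence intervals of EXLA1 (0.16 to 1.13), EXPB1 (−1.12 to −0.027) and EXPB3 (−1.12 to −0.071) no longer included 0, and that of EXPA4 did (−0.92 to 0.085). Over all probe sets 2 passed with the replicate block, and 0 to 10 when leaving out single arrays. The sign of the genotype difference turned for 8 members, all of them when an array was left out. Leaving out single arrays, the log2 difference ranged from −0.97 to 0.47 for EXLB1, −0.67 to 0.76 for EXPA9, −0.55 to 0.26 for EXPA15, −1.92 to 2.38 for EXPA16, −0.020 to 0.24 for XTH16, −0.11 to 0.29 for XTH18, −0.15 to 0.95 for XTH19 and −0.82 to 0.44 for XTH32. Under quantile normalization XTH18 was at −0.031. EXPA4, EXPA8, EXPB1, EXPB3, EXLA1 and EXLA2 kept their sign throughout. The 4 members whose arrays did not overlap between the genotypes also did not under quantile normalization or median centring, both applied to that count after seeing the data, and under the latter EXPA8 joined them.

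For the replicate numbers, 4 members and 1535 probe sets passed. Without a filter on dim probe sets 0 of 27 members and 0 of all probe sets passed, with 4 and 2705 at an unadjusted p under 0.05. The cause was not tested. With eBayes without a trend 2 members passed, EXPA9 and EXPA16. With the filter at the 60th percentile 1012 probe sets passed, and 3 of 10 members. Leaving out single arrays gave 1 to 5 members and 521 to 1242 probe sets, with the lowest of both counts without KO-nudx19 replicate 1. These fits, and those of the genotypes on 3 arrays, assume that the lone array of a group varies like the others. For the replicate numbers, every member count from leaving out single arrays includes EXPA16. It was the only member to pass without KO-nudx19 replicate 1. Since the probe sets were still those chosen with all 4 arrays, its place in these counts cannot support the calls. EXPA8 was lost with median centring (adjusted p = 0.0583), with eBayes without a trend (adjusted p = 0.0741) and without the genotype term (adjusted p = 0.143), and XTH32 with eBayes without a trend (adjusted p = 0.0703). Under median centring EXPA8 no longer parted by number, which left 5 members whose arrays did not overlap, against 6. The sign turned for 6 members, none of which passed with all arrays. EXLA2 was 0.096 under quantile normalization and 0.027 with median centring, and XTH18 was 0.045 with median centring. Leaving out single arrays, the range was −0.59 to 0.51 for EXLA2, −0.072 to 0.61 for EXPA4, −0.50 to 0.11 for EXPB1, −0.17 to 0.85 for EXPB3, −0.25 to 0.21 for XTH18 and −0.997 to 0.011 for XTH19.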

Other observations

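A pair of probe sets belong to these families by a synonym and carry another symbol, so they were not among the members. EXGT-A3 (AT2G01850), also called XTH27, read 1680 and 1214 on the wild-type arrays, 1931 and 1278 on those of KO-nudx19. Both arrays numbered 2 were lower than both numbered 1, as were those of 30.8% of all tested probe sets. The log2 difference was −0.53 (SE 0.21), which did not pass (adjusted p = 0.108 in limma). AT4G30380, also called EXLB2, was below the floor on every array, with signals from 0.528 to 0.981. Of the related genes of wall synthesis, CSLC04, the synthase of the xyloglucan backbone, read 414 and 428 on the wild-type arrays, 356 and 491 on those of KO-nudx19. COB, a membrane-anchored protein needed for oriented cellulose deposition, had 1649 and 1716 against 1714 and 1897. The genotypes overlapped for CSLC04 and COB. For each, both arrays numbered 2 were above both numbered 1, as were those of 23.6% of all tested probe sets. The log2 differences between the numbers were 0.26 and 0.10, and neither gene passed in either comparison.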
